A study of Mus musculus with 15 samples.

Results

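The genes described here were 38 developmental transcription factors that pattern tissues other than T cells, taken from 49550 RefSeq genes on 20 chromosomes. They were named members of the Pax, Sox, Nkx, Lhx, T-box, Dlx, Foxa and Gata families, basic helix-loop-helix factors and further homeobox factors, chosen as regulators of other tissues and frequently cited Polycomb targets. The series was made in EL4 cells, a murine T lymphoma line with the strain label C57BL/6N, grown untreated. It holds ChIP-seq for the histone marks H3K4me3, H3K9ac, H3K27ac, H3K27me3 and H3K36me2 and ATAC-seq of accessible chromatin, as lists of called intervals with 2 replicates per set, and 12 of its 15 samples had such a list, of 17519 to 46015 intervals each. The study's main assay measured by mass spectrometry how much isotope label histones with given marks took up. Its ChIP-seq maps were intersected with ATAC-seq and RNA-seq, to set that labeling beside accessibility and transcription. EL4 is 1 line, the methods describe replicates as technical, and no treated group was in the lists, so each comparison below is between genes or between replicates of the same cells.

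H3K27me3 is laid down by Polycomb repressive complex 2 and is known for covering silent developmental regulators, whose promoters are often rich in CpG. H3K4me3 marks promoters, while H3K9ac, H3K27ac and open chromatin go with active promoters and enhancers. In embryonic stem cells many of these genes carry H3K4me3 and H3K27me3 together, a state called bivalent.

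Each gene was given the window of its GRCm38 span plus 5 kb on each side, and a set counted as present when at least 1 bp of a peak merged from both replicates fell in the window. The classes were H3K4me3 with H3K27me3, H3K27me3 without H3K4me3, active marks (H3K4me3, H3K9ac, H3K27ac or ATAC-seq) with no H3K27me3, H3K36me2 only, and none. H3K27me3 was listed at 18 of 38 members (47.4%), against 27.6% of all genes and 28.4% of protein-coding genes. An H3K27me3 interval of each replicate was present at 15 members (39.5%), against 19.4% of all genes. H3K4me3 was listed at 10 members (26.3%), against 34.0% of all genes and 11890 of 21627 protein-coding genes, a higher share still. H3K9ac was listed at 6 members against 32.9% of all genes, H3K27ac at 5 against 34.5%, ATAC-seq at 7 against 33.1%, and at least 1 of these 4 active sets at 11 (28.9%) against 37.7%. Among protein-coding genes the shares were 53.8% for H3K9ac, 55.1% for H3K27ac, 53.9% for ATAC-seq and 58.7% for at least 1 active set. H3K36me2, a broad mark, was listed at 5 members (13.2%), against 41.5% of all genes and 57.0% of protein-coding genes.

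By class, 13 members (34.2%) had H3K27me3 without H3K4me3, against 22.7% of all genes and 4316 of 21627 protein-coding genes. A further 5 members (13.2%) had H3K4me3 with H3K27me3, against 4.92% of all genes and 8.42% of protein-coding genes. The windows of these 5 had a median of 82.8 kb, against 16.0 kb for all genes and 27.3 kb for protein-coding genes. The part of window length in this count was not tested. Active marks with no H3K27me3 were listed at 6 members (15.8%), against 31.7% of all genes and 48.8% of protein-coding genes. Only Lhx3 had H3K36me2 alone (2.63%), against 9.89% of all genes and 5.02% of protein-coding genes. No interval of any set was listed at the last 13 members (34.2%), against 30.8% of all genes and 17.9% of protein-coding genes. Against all genes, the share with no interval was thus close to the background, and the shares with H3K27me3 lay above it. Against protein-coding genes, the share with no interval was higher as well (34.2% against 17.9%). The lists give no read depth, so a missing interval means only that none was called. No test across genes was made: these are counts beside the background.

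**Figure D1:**
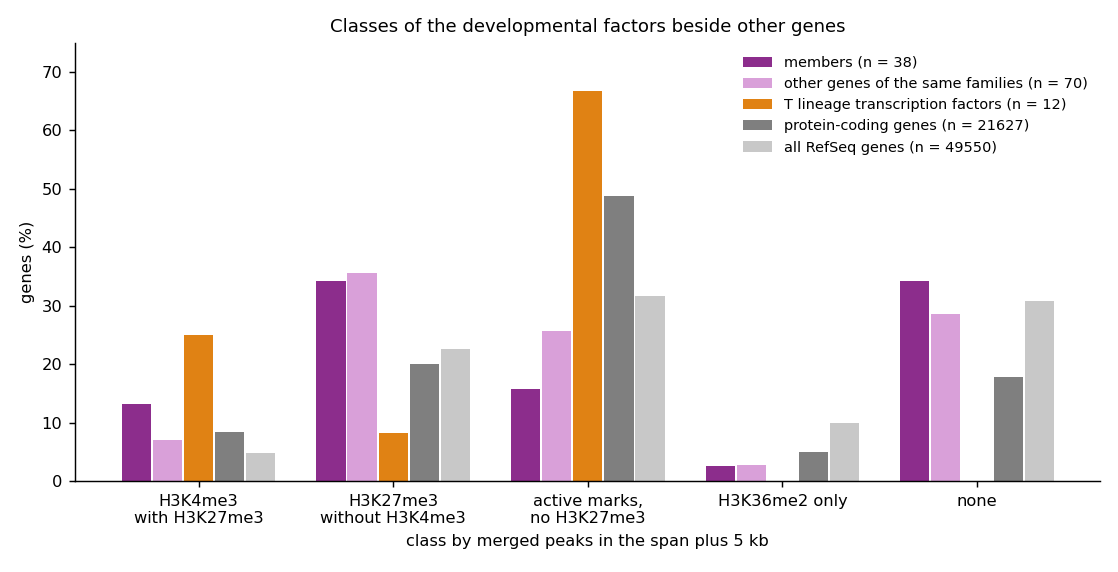
Percent of genes (vertical axis) in each of the 5 classes (horizontal axis) for the 38 members, 70 other genes of the same families, 12 T lineage transcription factors, protein-coding genes and all RefSeq genes; bars are shares of genes in the merged lists and carry no error. The members had 34.2% in the class with H3K27me3 and no H3K4me3 and 34.2% with no interval, while 66.7% of the T lineage factors were in the active class.

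The replicates gave 34 of 38 members the same class, among them the 13 with no interval. Pax3 and Sox17 are in this count, though their H3K27me3 shared no base between replicates. The same count was not made over all genes. Nkx2-5 had H3K27me3 in replicate 1 only, Lhx1 and Olig2 had it in replicate 2 only, and Gata4 had H3K4me3 in its window in replicate 1 only. The cell line label was checked with T cell genes: all 9 markers (Cd3e, Cd3d, Cd3g, Cd247, Lck, Zap70, Lat, Thy1 and Ptprc) fell in the active class with no H3K27me3, which holds 31.7% of all genes. Among B cell markers Cd79a had active marks and Ms4a1 had H3K27me3. Among myeloid markers Lyz2 and Itgam had active marks and Csf1r had H3K27me3.

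**Figure D2:**
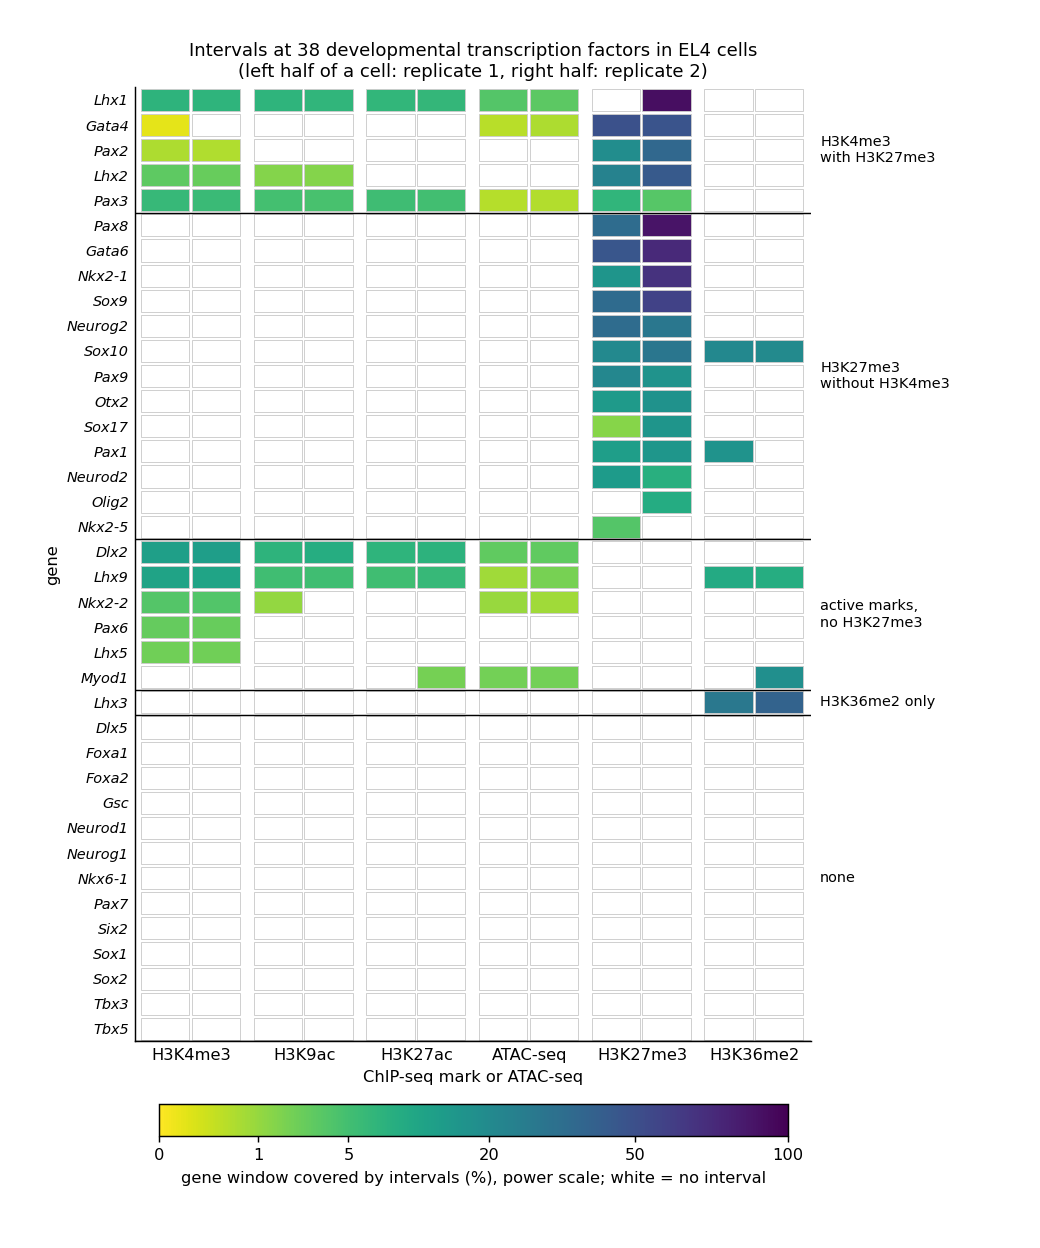
Percent of each member's window (span plus 5 kb) covered by the intervals of each set; rows are the 38 genes grouped by class, columns are the 6 sets, and each cell is split into replicate 1 (left) and replicate 2 (right), with white for no interval and a power color scale. The H3K27me3 column is filled at 18 genes, and the last 13 rows are white in both replicates.

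The bases just before some of the listed transcription starts are given here with the marks that covered them. The stretches below are the 250 bases before a start listed by RefSeq (GRCm38.p6), 5′ to 3′ on the gene's strand, with each CpG in capitals. Lhx2, Pax6, Dlx2 and Lhx9 are shown because H3K4me3 covered these bases, Pax8 because H3K27me3 did, and Sox2 and Neurod1 because they are CpG-rich and no set touched them.
Lhx2 (chr2:38339031-38339280, plus strand): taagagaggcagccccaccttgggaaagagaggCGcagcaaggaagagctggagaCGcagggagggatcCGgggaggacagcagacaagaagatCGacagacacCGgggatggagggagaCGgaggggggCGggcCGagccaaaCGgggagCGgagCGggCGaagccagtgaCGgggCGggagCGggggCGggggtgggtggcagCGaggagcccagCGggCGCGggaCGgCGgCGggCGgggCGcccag
Pax6 (chr2:105682213-105682462, plus strand): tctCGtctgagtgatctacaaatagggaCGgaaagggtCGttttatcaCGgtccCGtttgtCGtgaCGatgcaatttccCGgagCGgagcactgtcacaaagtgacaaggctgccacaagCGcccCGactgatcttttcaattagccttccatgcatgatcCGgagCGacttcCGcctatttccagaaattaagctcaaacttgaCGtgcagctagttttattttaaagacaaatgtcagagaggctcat
Dlx2 (chr2:71546755-71547004, minus strand): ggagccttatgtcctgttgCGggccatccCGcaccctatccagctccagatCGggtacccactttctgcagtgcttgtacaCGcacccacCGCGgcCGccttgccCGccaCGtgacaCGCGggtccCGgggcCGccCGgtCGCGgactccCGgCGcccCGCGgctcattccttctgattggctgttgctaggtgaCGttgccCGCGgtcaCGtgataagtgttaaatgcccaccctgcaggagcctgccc
Lhx9 (chr1:138842445-138842694, minus strand): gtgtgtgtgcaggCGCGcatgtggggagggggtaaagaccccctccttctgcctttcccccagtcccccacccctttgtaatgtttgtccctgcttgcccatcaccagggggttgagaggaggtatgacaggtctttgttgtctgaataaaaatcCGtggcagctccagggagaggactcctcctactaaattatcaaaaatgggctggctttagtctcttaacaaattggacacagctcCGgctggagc
Pax8 (chr2:24475600-24475849, minus strand): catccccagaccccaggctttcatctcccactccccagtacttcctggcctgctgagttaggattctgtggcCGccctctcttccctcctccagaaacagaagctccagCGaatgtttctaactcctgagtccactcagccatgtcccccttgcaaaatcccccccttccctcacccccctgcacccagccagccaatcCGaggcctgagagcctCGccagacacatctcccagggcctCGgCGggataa
Sox2 (chr3:34649745-34649994, plus strand): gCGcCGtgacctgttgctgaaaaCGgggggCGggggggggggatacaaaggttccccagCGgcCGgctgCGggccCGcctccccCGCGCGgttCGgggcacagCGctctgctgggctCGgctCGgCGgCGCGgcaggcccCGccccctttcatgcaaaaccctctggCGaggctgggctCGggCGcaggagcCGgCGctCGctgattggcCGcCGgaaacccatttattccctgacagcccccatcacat
Neurod1 (chr2:79456637-79456886, minus strand): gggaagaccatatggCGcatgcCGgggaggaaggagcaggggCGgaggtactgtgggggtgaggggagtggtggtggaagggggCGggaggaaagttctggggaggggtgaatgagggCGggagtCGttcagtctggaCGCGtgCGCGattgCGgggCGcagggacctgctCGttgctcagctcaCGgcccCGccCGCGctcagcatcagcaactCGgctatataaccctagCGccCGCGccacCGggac

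H3K4me3 covered all 250 bases in both replicates at Lhx2, Pax6, Dlx2 and Lhx9. These stretches hold 25 CpG at Lhx2, 15 at Pax6, 24 at Dlx2 and 4 at Lhx9. H3K27me3 covered all 250 bases at Lhx2 in both replicates, and at Pax8 in replicate 2 but 0 in replicate 1. Sox2 holds 27 CpG and Neurod1 22, near the counts of Lhx2 and Dlx2, and no interval of the 6 sets touched either stretch.

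RefSeq promoters (250 bases before to 50 after a start) were listed for 27 members, 37 promoters in all. CpG-rich promoters, defined by a GC content of at least 55% and an observed over expected CpG of at least 0.6, made up 21 of the 37 (56.8%), against 30.5% of 32619 promoters. H3K4me3 touched 2 of these 21 (9.52%), those of Lhx2 and Dlx2, against 71.3% of all CpG-rich promoters. No set touched 17 of the 21 (81.0%), against 20.5% of all CpG-rich promoters. ATAC-seq touched 0 of the 21, against 67.9%. H3K27me3 touched 2 of the 21 (9.52%), those of Lhx1 (in replicate 2 only) and Lhx2, against 5.04% of all CpG-rich promoters. Over all promoters, H3K27me3 touched 3 of the members' 37 (8.11%), against 12.9%, so the order of the shares was reversed there and each rests on few promoters. The 37 include 4 of Otx2, 3 of Pax2 and 3 of Foxa2, none touched by H3K27me3. Gata6, Sox9 and Gata4, with H3K27me3 over 80.8%, 64.2% and 61.7% of their windows, had no listed promoter. CpG-rich promoters were thus frequent among these genes, and most had neither mark.

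**Figure D3:**
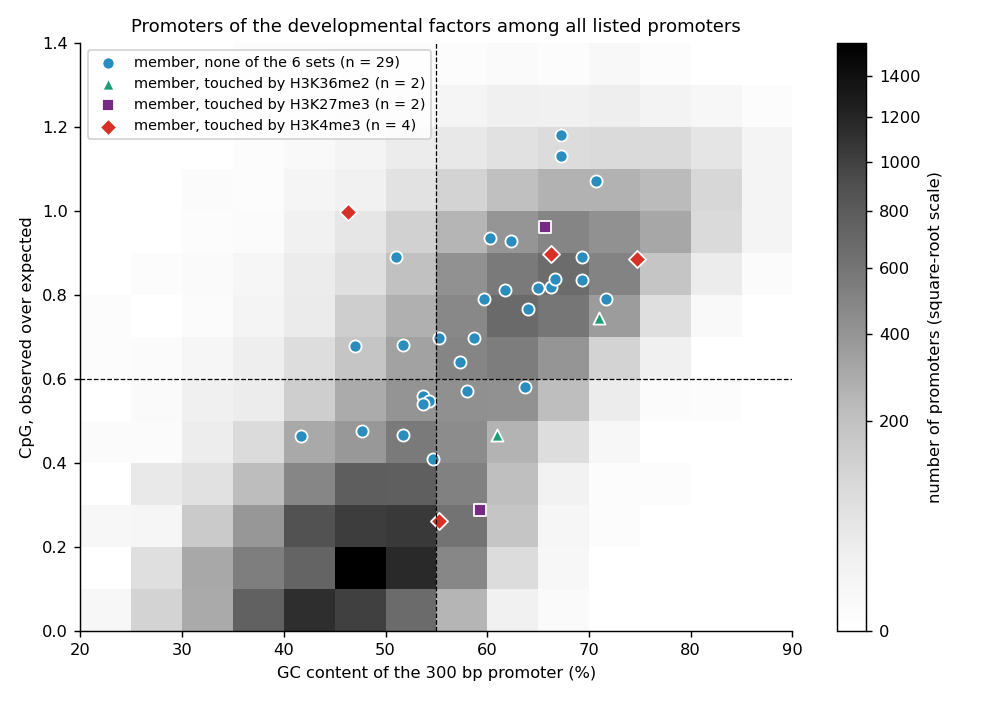
GC content in percent (horizontal axis) against observed over expected CpG (vertical axis) of 300-base promoters; gray squares count all listed promoters, points are the 37 member promoters by the set that touched them, with H3K4me3 taking precedence, and dashed lines mark 55% and 0.6. In the upper right quadrant 17 of 21 member promoters carry no set.

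The motif GGGCGG, on either strand (its reverse complement is CCGCCC), was found in 24 of 37 member promoters (64.9%), against 35.9% of all promoters. A CpG lies inside each match, and among the CpG-rich promoters the shares were 81.0% for the members and 79.1% for all. In the class without any interval, 9 of 12 promoters were CpG-rich, with a median observed over expected CpG of 0.864. In the class with H3K27me3 and no H3K4me3, 3 of 12 were CpG-rich, with a median of 0.564. These 12 came from 9 genes, with 4 from Otx2 alone. In the class with H3K4me3 and H3K27me3, 5 of 6 promoters, from 3 genes, were CpG-rich, with a median of 0.824. These counts rest on few genes, and 6 of the 18 members with H3K27me3 had no listed promoter. The shares were not counted over all genes of each class, so no difference between classes is drawn from them.

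Lhx2, a LIM homeobox factor of eye and forebrain, was the only member where H3K4me3 and H3K27me3 overlapped at a listed start. Its H3K4me3 peak of 1228 bp (chr2:38338888-38340115, with 1228 bp in replicate 1 and 1055 bp in replicate 2) lay inside an H3K27me3 peak of 14.2 kb (chr2:38334801-38348999), of which replicate 1 covered 6399 bp and replicate 2 14199 bp. An H3K9ac peak of 619 bp (609 and 597 bp) sat there too, and neither H3K27ac nor ATAC-seq was listed in the window. Both marks were thus listed there in each replicate, and lists from a population of cells cannot tell whether they share a nucleosome or a cell. Another listed start, downstream, lay 2.31 kb from the nearest H3K27me3 and was touched by no set.

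The other 4 members of the class had the marks in 1 window but at separate places, or shared a window with a neighbor. Pax2, a regulator of kidney and eye, had an H3K4me3 peak of 571 bp (chr19:44812345-44812915, 532 and 517 bp) inside its span, with no acetylation or ATAC-seq interval in the window. H3K27me3 covered 19066 bp of the Pax2 window in replicate 1 and 36598 bp in replicate 2, of which 2199 bp were shared. The amount of H3K27me3 was large in each replicate, but mostly at different positions. None of the 3 listed Pax2 starts lay in H3K27me3, the distances being 9.89 to 11.4 kb.

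Pax3, a factor of neural crest and muscle progenitors, had the most active intervals of any member. Its window held 5 H3K4me3 peaks of 892 to 1843 bp, each in both replicates, with 6 H3K9ac, 7 H3K27ac and 2 ATAC-seq peaks in the same stretch. H3K27me3 covered 7398 bp in replicate 1 and 3733 bp in replicate 2, with 0 bp shared. H3K27me3 at Pax3 thus had no position that both replicates list, while each H3K4me3 peak did.

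Lhx1, needed for head and kidney formation, had 0 bp of H3K27me3 in replicate 1 and 15934 bp in replicate 2 (90.7% of the window). The H3K4me3 peak in its window (1859 and 1744 bp) touched the neighboring gene Aatf and not the span of Lhx1, as did the H3K9ac, H3K27ac and ATAC-seq peaks beside it. Gata4, a factor of heart and gut, had H3K27me3 over 40393 bp in replicate 1 and 38880 bp in replicate 2, in 8 peaks. Its H3K4me3 was 27 bp of a 384 bp peak that touched Neil2, 4.97 kb from the Gata4 span, and an ATAC-seq peak of 457 bp (327 and 457 bp) lay within the gene. The H3K4me3 in both windows thus touched a neighbor's span and not that of the member.

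**Figure D4:**
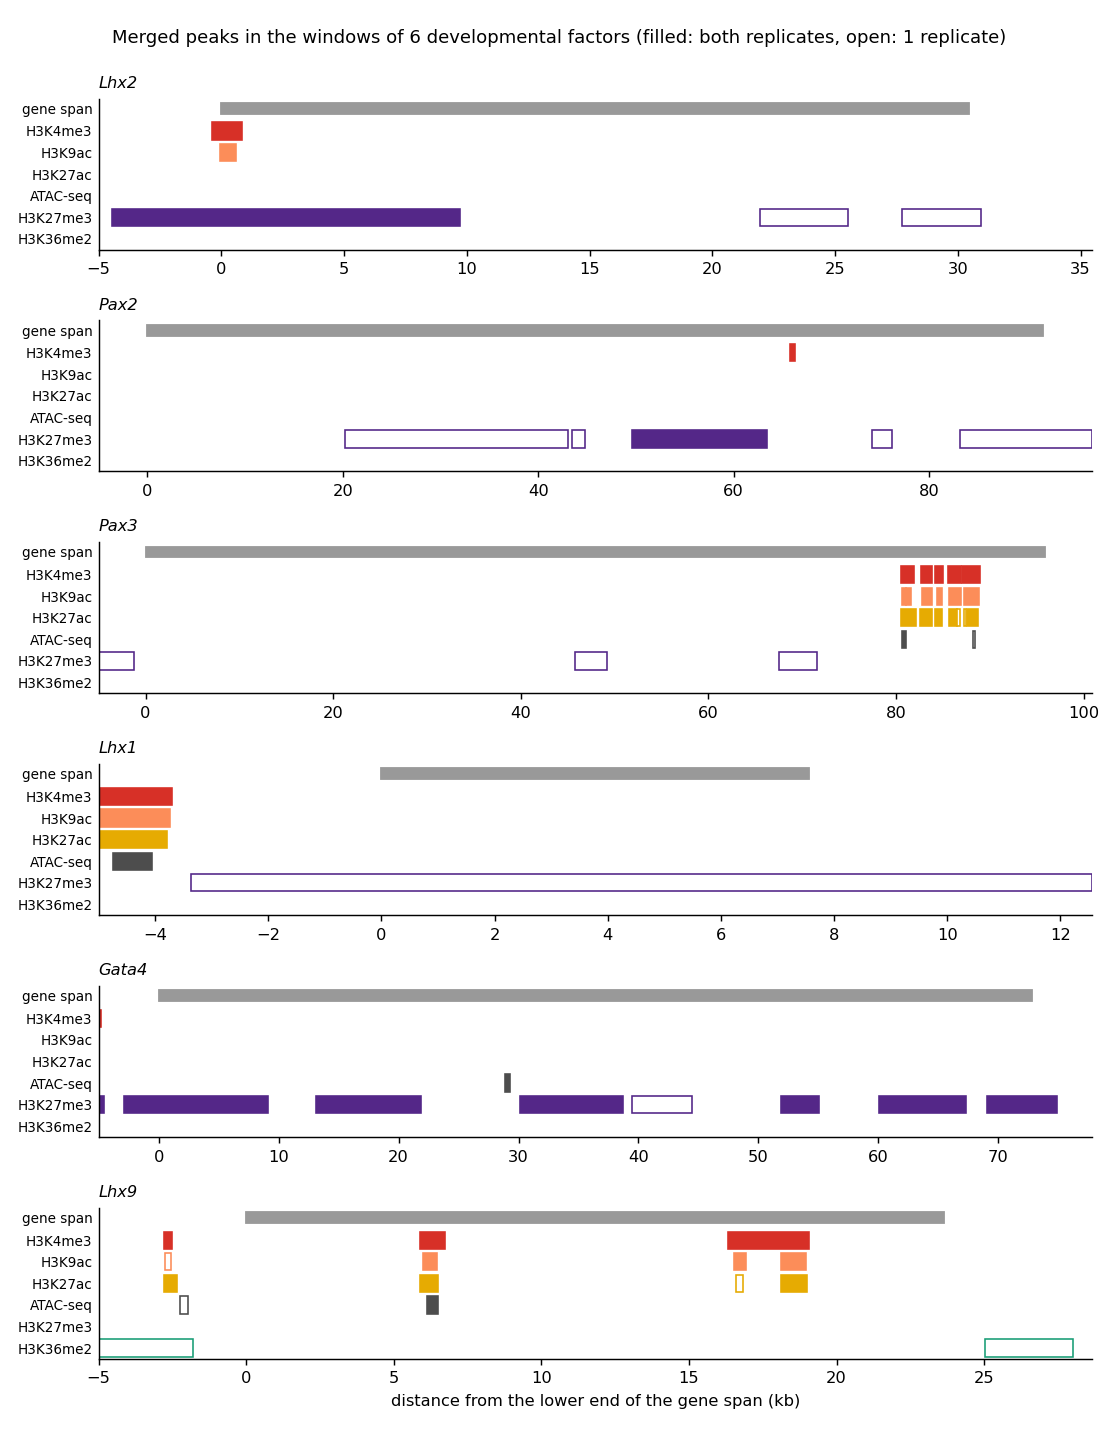
Merged peaks of the 6 sets (rows, by color) in the windows of Lhx2, Pax2, Pax3, Lhx1, Gata4 and Lhx9, against distance from the lower end of the gene span in kb; the gray bar is the gene span, filled boxes have bases from both replicates, open boxes from 1. H3K4me3 lies within H3K27me3 at the Lhx2 start, while at Pax3 and Pax2 the marks are apart, and at Lhx9 no H3K27me3 is present.

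The 6 members with active marks and no H3K27me3 were Pax6, Nkx2-2, Lhx5, Lhx9, Dlx2 and Myod1. Lhx9, a factor of gonad and limb, had 3 H3K4me3 peaks of 262, 855 and 2741 bp, the last over its listed start. Each of these touched H3K9ac and H3K27ac, and the ATAC-seq peak of 366 bp within the gene was in both replicates (253 and 366 bp). H3K36me2 lay beside the gene, with 3214 bp in replicate 1 and 2999 bp in replicate 2, on opposite sides. Dlx2, a factor of forebrain interneurons and the face, had H3K4me3 of 710 bp (659 and 660 bp) at its start, with H3K9ac of 314 bp in replicate 2 only. A second H3K4me3 peak of 1097 bp (1046 and 1097 bp) lay outside the span and carried H3K9ac, H3K27ac and ATAC-seq in both replicates.

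Pax6, the eye regulator, had H3K4me3 of 1061 bp (chr2:105681997-105683057, 1061 and 1034 bp) at the downstream of its 2 listed starts, and no other set in the window. Lhx5, a forebrain factor, likewise had only H3K4me3, with 452 bp (432 and 437 bp). Nkx2-2, which patterns the ventral neural tube and pancreas, had H3K4me3 of 1117 bp (1074 and 1115 bp) 7.41 kb from its listed start. H3K9ac at Nkx2-2 was 311 bp in replicate 1 and 0 bp in replicate 2, and the replicates placed ATAC-seq at different positions (268 bp and 226 bp). Myod1, the muscle regulator, had no H3K4me3, with ATAC-seq of 265 and 260 bp beside the gene and H3K27ac of 256 bp in replicate 2 only. H3K36me2 at Myod1 was 0 bp in replicate 1 and 2292 bp in replicate 2. At Pax6 and Lhx5 H3K4me3 thus stood alone, and at Myod1 it was missing.

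Together the 10 members with H3K4me3 had 17 peaks in their windows, 13 of which touched a member's span, in 8 genes. Their median width was 1100 bp, against 1390 bp for all 18471 H3K4me3 peaks. H3K27ac touched 10 of the 17 (58.8%), against 90.6% of all H3K4me3 peaks, and ATAC-seq touched 6 (35.3%), against 74.6%. H3K9ac touched 13 (76.5%), against 87.2%. H3K27me3 touched 2 of the 17 (11.8%), those in the Lhx2 and Gata4 windows, against 1.65% of all peaks. H3K36me2 touched 1 (5.88%), against 49.8%. The 17 peaks come from 10 windows and 5 of them from Pax3, so they are not independent.

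The 13 members with H3K27me3 and no H3K4me3 held no H3K4me3 peak within 8.69 kb of their spans, with a median distance of 144 kb. Across the 18 members with H3K27me3, it covered a median of 36.6% of the window, against 42.3% for all genes that had it and 32.5% for protein-coding genes. Of all base pairs in the 38 windows 25.2% were covered (12.4% in replicate 1 and 20.4% in replicate 2), against 14.0% for all genes (9.78% and 11.3%). Pax8, Pax2 and Gata4 together held 53.7% of the covered base pairs of the members. The base pairs found in both replicates were 0.301 of those found in either, against 0.499 for all genes. H3K27me3 covered more in replicate 2 at 12 of the 18 members and more in replicate 1 at 6. The whole H3K27me3 lists covered 259 Mb in replicate 1 and 297 Mb in replicate 2, and the part of this difference in the members' values was not tested.

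The 5 members with the highest merged share were Pax8, Lhx1, Gata6, Nkx2-1 and Sox9. Pax8, a thyroid and kidney factor, had H3K27me3 over 22195 bp in replicate 1 and 56795 bp in replicate 2, with 91.3% of the window covered in the merged lists. Gata6, an endoderm and heart factor, had 19832 and 31632 bp (80.8% merged). Nkx2-1, which specifies thyroid, lung and ventral forebrain, had 2399 and 10172 bp (78.6%), of which 799 bp were shared. Sox9, the cartilage and testis regulator, had 5399 and 8989 bp (64.2%). At each of these genes replicate 2 covered more, and at Lhx1, described above, replicate 1 had none.

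The 5 members with the lowest share among those with H3K27me3 were Nkx2-5, Olig2, Pax3, Neurod2 and Pax1. Nkx2-5, the cardiac factor, had 599 bp in replicate 1 and 0 bp in replicate 2 (3.67% merged). Olig2, which directs motor neuron and oligodendrocyte fates, had 0 and 1199 bp. Neurod2, of cortical neurons, had 1985 and 1185 bp from a 13.0 kb peak outside its span that touched Gm31317. Pax1, of sclerotome and thymic epithelium, had 2999 and 3599 bp. Nkx2-5 and Olig2 each rested on 1 replicate, whereas Neurod2 and Pax1 had H3K27me3 in both.

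**Figure D5:**
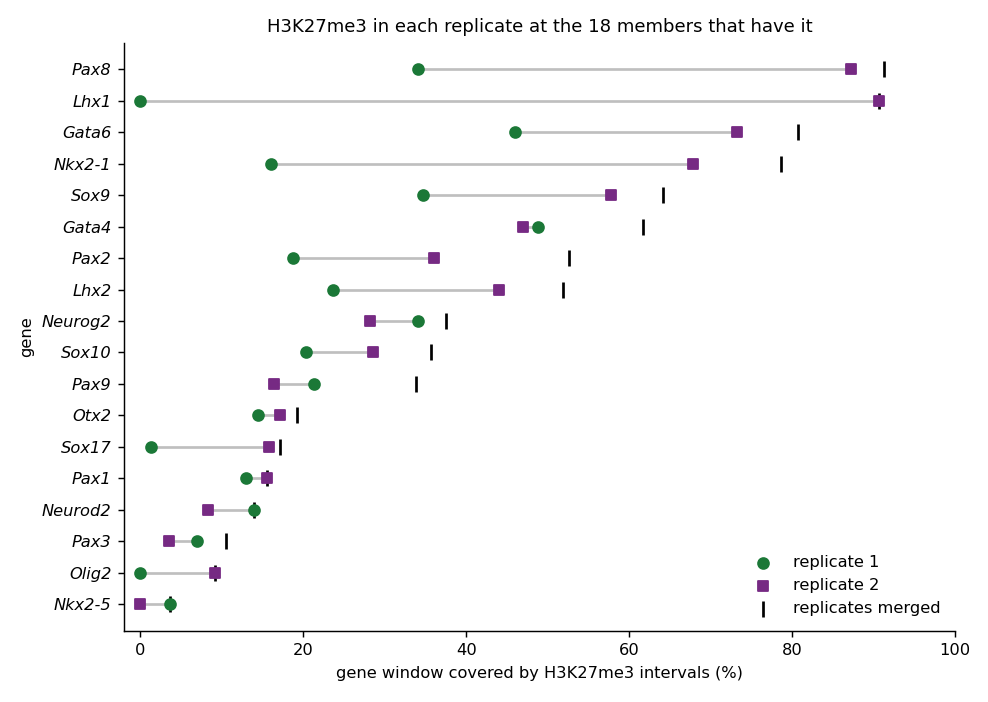
Percent of the gene window covered by H3K27me3 (horizontal axis) at the 18 members that have it (vertical axis), for replicate 1 (circles), replicate 2 (squares) and the merged lists (ticks). The gap between replicates is widest at Lhx1 (0 and 90.7%), and Nkx2-5 lacks it in replicate 2.

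The remaining members of the H3K27me3 class had it in both replicates. Neurog2, a proneural factor, had 4399 bp in replicate 1 and 3635 bp in replicate 2, from a 35.2 kb peak that touched Alpk1 and not the Neurog2 span. Otx2, of the forebrain, had 2999 and 3599 bp, ending 134 bp from the nearest of its 4 listed starts. Pax9, of palate and teeth, had 6623 and 5106 bp. Sox10, of neural crest and glia, had 3999 and 5599 bp, and Sox17, of endoderm, had 226 and 2599 bp with 0 bp shared. Starts were matched for 12 of the 18 members with H3K27me3. In the merged lists a start lay inside the mark at 3 of the 12 genes (Pax8, Lhx1 and Lhx2). At 2 others the nearest start lay outside it but within 1 kb, at 308 bp for Nkx2-1 and 134 bp for Otx2. Only replicate 2 listed the mark at Lhx1, over the bases before the Pax8 start and in the peak nearest the Nkx2-1 start. The same count was not made over all genes. The other 6 genes, among them Gata6, Gata4 and Sox9, are not in this count.

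H3K36me2 was listed at Pax1, Sox10, Lhx3, Lhx9 and Myod1. Lhx3, a pituitary and motor neuron factor, had 5049 bp in replicate 1 and 7049 bp in replicate 2, the end of a 30.4 kb peak that also touched Qsox2, and both of its listed promoters lay in it. Sox10 had H3K36me2 of 4087 and 3887 bp beside its H3K27me3, from a peak of 11.4 kb that touched Polr2f and not the Sox10 span. Pax1 had 3799 bp in replicate 1 and 0 bp in replicate 2. H3K36me2 was thus in both replicates at Lhx3, Sox10 and Lhx9, at Lhx9 without a shared base.

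The 13 members with no interval were Pax7, of muscle satellite cells, Sox1 and Sox2, of neural progenitors, Nkx6-1 and Neurod1, of pancreatic beta cells and neurons, Neurog1, of sensory neurons, Six2, of nephron progenitors, Foxa1 and Foxa2, pioneer factors of endoderm, Tbx3 and Tbx5, of limb and heart, Dlx5, of bone and face, and Gsc, of the gastrula organizer. Their windows were 11.7 to 106 kb long, with a median of 14.3 kb, against 16.0 kb for all genes. The nearest H3K27me3 lay 6.16 kb from Gsc, 7.93 kb from Dlx5, 12.1 kb from Sox1 and 19.8 kb from Neurod1, so Gsc was the gene just outside the 5 kb flank, as Neurod2, at 3.02 kb, was just inside it. It was farthest from Sox2, at 1550 kb, and lay 422 kb from Tbx3, 349 kb from Nkx6-1 and 275 kb from Six2. The nearest H3K4me3 was 11.9 to 568 kb away, with a median of 277 kb. The class thus ranged from genes beside Polycomb-marked chromatin to genes far from any listed H3K4me3 or H3K27me3.

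In windows of the span plus 100 kb, 8 members (21.1%) had no H3K27me3 (Pax7, Sox2, Nkx6-1, Lhx9, Six2, Foxa2, Tbx3 and Tbx5), against 40.2% of all genes without any. The median share covered was 15.4% over all 38 members, against 3.02% for all genes. Since the wide window contains the narrow one, members with H3K27me3 in the span plus 5 kb are set beside all genes that have it there: the medians were 36.3% and 32.8%. For the 20 members without it the median was 8.88%, against 0% for all genes without it, and for the 13 with no interval of any set it was 0%. Gsc reached 48.5% and had no interval in its own window. H3K36me2 covered a median of 0% of these wide windows at the members with no interval and 28.0% at those with active marks, against 12.8% for all genes.

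Neighboring members could differ. On chromosome 2, Nkx2-2 (active marks), Pax1 (H3K27me3) and Foxa2 (no interval) lay within 870 kb, of which H3K27me3 covered 10.1% (4.48% in replicate 1 and 7.53% in replicate 2). On chromosome 12, Nkx2-1 and Pax9 (H3K27me3) lay 155 kb apart, and Foxa1 (no interval) a further 828 kb away. H3K27me3 covered 29.2% of this 1020 kb stretch (15.0% and 22.7%). On chromosome 5, Tbx3 and Tbx5 (no interval) and Lhx5 (H3K4me3) lay within 771 kb with 8.07% covered (1.87% and 7.03%). Each stretch thus held members of more than 1 class.

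Among 70 other genes of the same families, 30 had H3K27me3 (42.9%), of which 18 had it in both replicates (25.7%), against 27.6% and 19.4% of all genes. No interval was listed at 20 of these genes (28.6%). The other classes were 25 genes with H3K27me3 and no H3K4me3 (35.7%), 18 with active marks (25.7%) and 5 with H3K4me3 and H3K27me3 (7.14%), against 22.7%, 31.7% and 4.92% of all genes. The list includes factors that lymphocytes use, such as Gata3, Tbx21, Eomes, Sox4, Sox13 and Pax5. Of 12 T lineage transcription factors, 11 had H3K4me3 (91.7%), all but Satb1, against 34.0% of all genes, and 10 of 38 members did. H3K36me2 was at 11 of the 12 (91.7%), against 5 of 38 members and 41.5% of all genes. H3K27me3 was at 4 of the 12 (33.3%), 2 of them in both replicates, Lef1 and Runx3. The windows of the T lineage factors had a median of 105 kb and those of the members 17.8 kb, and the part of window length in these counts was not tested.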

How the data were processed

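ChIP-seq and ATAC-seq of EL4 cells were used as 12 lists of intervals, 1 for each replicate of 6 sets. Per the methods, the authors aligned reads with STAR (version 2.5), kept unique alignments, treated duplicates with Picard and called peaks with MACS2 (narrow marks and ATAC-seq) or Epic (broad marks), with input as the ChIP-seq control. The deposited lists hold only positions (chromosome, start and end in base pairs), with no count or score, so depth is unknown. The methods state that reads on the sex chromosomes were discarded, whereas the lists hold intervals on chromosome X. The input and RNA-seq libraries (3 samples) were not used here. Broad intervals lie on bins of 200 bp.

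Replicates were merged where intervals overlapped or adjoined. Gene spans came from RefSeq on GRCm38.p6, and 1 bp in the span plus 5 kb counted as present. The members and lists were chosen with earlier results of these data known. Values for each replicate were given for members with H3K4me3, active marks or ATAC-seq, for the 5 highest and 5 lowest H3K27me3 shares, for members within 1000 kb of each other and for members whose class differed between replicates. Promoters came from RefSeq and were matched by symbol for 27 members, not for Tbx3, Tbx5, Sox9, Sox10, Sox17, Pax3, Lhx5, Myod1, Gata4, Gata6 and Dlx5. The gene table gives no strand, exons or introns. No statistical test was made. Overlap code was tested on simulated intervals, with Python 3.11.15, numpy 2.4.6, pandas 2.3.3 and matplotlib 3.10.9. The result for 1 marker gene is not reported here.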

Additional observations from a re-analysis of the deposited data

How the results depend on the processing

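Over 11 alternative settings, 16 of 38 members kept their class, among them Lhx2, Pax8, Gata6, Sox2 and Foxa2. How many of all genes kept theirs was not counted. Merging intervals within 1000 bp changed no member's class, and could not have done so. The shortest member window was 11.7 kb, so closing such gaps cannot bring a set into a window that lacked it, or remove a set. This setting is counted among the 11 but is no check on the classes. H3K27me3 was listed at 13 (34.2%) to 25 (65.8%) members, above the share of all genes in each setting (17.9 to 38.2%).

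The count with H3K4me3 and H3K27me3 was 5 in the merged lists (4.92% of all genes), 2 in the intersection of the replicates (2.65%), 3 with an interval of each replicate required (2.88%), 3 for the span with no flank (2.36%), 11 for the span plus 20 kb (13.9%) and 1, Lhx2, for 3 kb outside to 2 kb inside each listed start (1.52%). Both gene ends stood in where no start was matched, as for 11 members. Leaving out replicate 1 or replicate 2 gave 4 in each case (3.85 and 3.93% of all genes). With the span plus 20 kb, 8 members had no interval (21.6% of all genes) and the median H3K27me3 share over the members was 13.0%, against 0 in the main window. With peaks of at least 500 bp, 2 members had H3K36me2 only (11.3% of all genes). A window at the end of the gene span in place of each listed start, chosen after the data were examined, gave 1 member with H3K4me3 and H3K27me3 (1.42%), 3 with active marks (27.3%), 2 with H3K36me2 only (11.4%) and 20 with no interval (41.5%). These windows differ in length or place by construction. Without replicate 1, 13 members had H3K27me3 and no H3K4me3 (19.5% of all genes), and without replicate 2, 12 (19.7%). No interval was listed at 14 members in each case (35.2 and 35.4% of all genes). Counting CpG-rich promoters from an observed over expected CpG of 0.75, chosen after the data were examined, left 2 of 17 with H3K4me3 (11.8%), against 75.5% of all.

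No paired analysis was possible because no groups were compared by a test. The replicates are technical, and intervals carry no counts, so spread between cultures could not be measured.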
